A study of Mus musculus with 14 samples.

Results

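The genes described here are 10 genes of the LIN28 and let-7 pathway and of RNA uridylation, followed in differentiating mouse embryonic stem cells (ESCs). They were picked by name, with no threshold on their values but with earlier results of these data known, from the 50686 genes of the deposited count table, of which 21889 are protein-coding: Lin28a and Lin28b, 6 mRNAs known as let-7 targets in development or cancer (Hmga2, Igf2bp1, Igf2bp2, Igf2bp3, Trim71 and Arid3a), and 2 terminal uridylyltransferase genes, Zcchc11 (also called Tut4) and Zcchc6 (also called Tut7). All 10 were found, and each held at least 35 reads in each library, so none was left out by a filter on low values. PolyA RNA was sequenced from a line with a stable shRNA against DIS3L2 (shDIS3L2) and a line with an shRNA against the bacterial gene LacZ (shLacZ), which served as the control. Both were taken as undifferentiated ESCs in medium with LIF and 2i (d0) and as embryoid bodies (EBs) every 2 days up to d12, which gave 14 libraries and a single one for each line and day. EBs are aggregates in which ESCs differentiate without directed signals. Here they were formed in hanging drops for 2 days and then kept in suspension in serum, without LIF or 2i. The study describes its lines depleted of DIS3L2 or LacZ both as Osr1-GFP reporter ESCs, and calls the control isogenic. Whether a line here is 1 clone is not given in the sources used here.

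LIN28A and LIN28B are RNA-binding proteins that hold back the maturation of let-7, a family of microRNAs that accumulates as cells differentiate. LIN28 binds the let-7 precursor and recruits ZCCHC11 or ZCCHC6, which add a tail of uridines to its end, and DIS3L2 is the exonuclease that degrades the tailed precursor. Mature let-7 in turn pairs through its seed with sites in the 3′UTRs of Lin28a, Lin28b and the other target mRNAs and lowers their level or translation. PolyA libraries hold neither mature let-7 nor its tailed precursor, so the values below are mRNA levels only.

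The let-7 seed, bases 2 to 8 of the mature microRNA, is shown first because the target sites below are read from it. RefSeq (GRCm38.p6) lists 11 let-7 family names with a 5′ arm, and 10 of them share the seed GAGGUAG. In the 4 sequences that follow, written 5′ to 3′, capitals mark the seed.
let-7a-5p: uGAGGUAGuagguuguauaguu
let-7c-5p: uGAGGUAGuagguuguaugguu
let-7e-5p: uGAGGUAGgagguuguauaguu
miR-98-5p: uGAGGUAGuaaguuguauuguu
Against let-7a-5p, let-7c-5p and let-7e-5p each differed at 1 of 22 bases and miR-98-5p at 2. A target mRNA that pairs with the whole seed holds CTACCTC, a 7-mer, and one that also has an A opposite the first base of the microRNA holds the 8-mer CTACCTCA. Both were searched on the transcript strand of the longest 3′UTR of each gene in GENCODE M21. Of 20905 genes with a 3′UTR, 9.02% held the 7-mer and 3.05% the 8-mer, at a median 3′UTR length of 962 bases.

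All 6 target mRNAs and both Lin28 genes held at least 1 match, and each of these 8 genes held at least 1 8-mer. These genes were picked by name for the let-7 pathway, so their matches are a description and not a test. Zcchc11 and Zcchc6, which are not in the family of targets, held none in 3′UTRs of 636 and 1346 bases. Of 3′UTRs within 1.25-fold of these lengths, 4.58% and 9.54% held a match. Hmga2, Lin28b, Igf2bp1 and Trim71 held 4 matches each, and 12 of the 20905 genes held 4 or more. Of the 2436 genes with a 3′UTR within 1.25-fold of the 3014 bases of Hmga2, 16.1% held a match and 0.123% held 4 or more. The shares with 4 or more among 3′UTRs of like length were 0.296% for Lin28b, 0.334% for Igf2bp1 and 0.483% for Trim71. Lin28a and Arid3a held 2 matches each, and 2.06% and 2.36% of 3′UTRs of like length held 2 or more. Igf2bp2 and Igf2bp3 held 1 each, where 12.1% and 13.4% held 1 or more, so that a match alone set these genes little apart. The sites below are the 8-mers nearest to the stop codon in Lin28b, Hmga2, Trim71, Lin28a and Arid3a. They are given on the strand of the gene with capitals marking the match. They lie in the annotated 3′UTR at these positions of GRCm38: chr10:45381022-45381043 (Lin28b, minus strand), chr10:120364224-120364245 (Hmga2, minus strand), chr9:114512472-114512493 (Trim71, minus strand), chr4:134005189-134005210 (Lin28a, minus strand) and chr10:79953896-79953917 (Arid3a, plus strand).
Lin28b: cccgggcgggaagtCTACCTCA
Hmga2: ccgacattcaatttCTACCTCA
Trim71: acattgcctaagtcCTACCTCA
Lin28a: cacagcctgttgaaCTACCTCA
Arid3a: aggcaagtttctttCTACCTCA
The match began 36 bases after the stop codon in Lin28b and 58 in Hmga2, against 166 in Trim71, 909 in Lin28a and 1974 in Arid3a. A match is a run of letters and is not shown here to be bound.

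**Figure D1:**
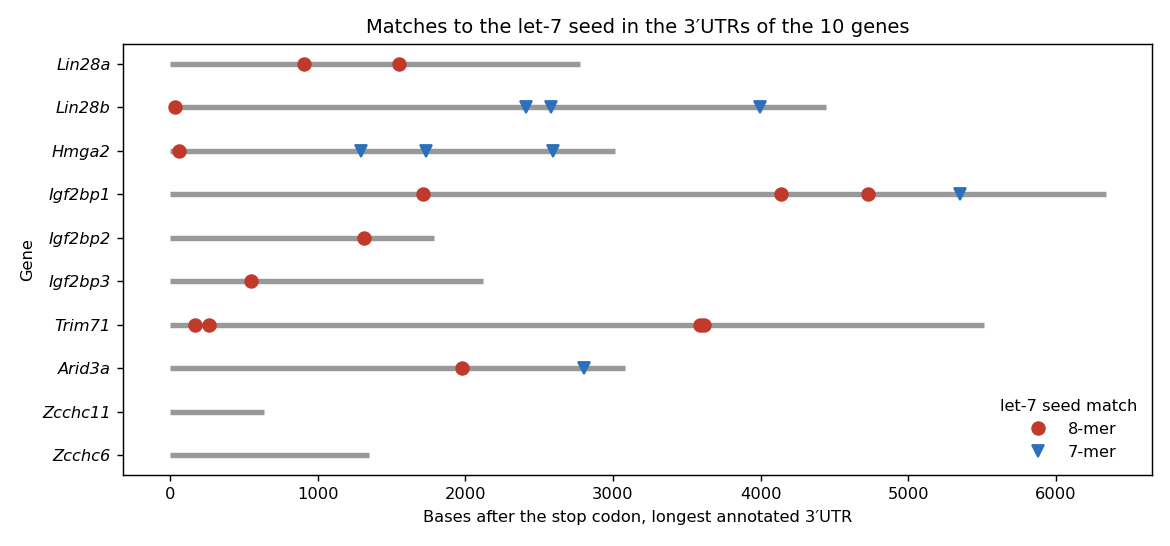
Matches to the let-7 seed in the longest annotated 3′UTR of each of the 10 genes, with bases after the stop codon on the horizontal axis, gray lines for the 3′UTR, red circles for 8-mers and blue triangles for 7-mers. Hmga2 and Lin28b each show 1 8-mer near the stop codon and 3 7-mers farther on, Trim71 shows 4 8-mers (2 of them touching at 3591 and 3617 bases), and Zcchc11 and Zcchc6 show none.

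Dis3l2, the target of the shRNA, was counted at 28.7, 15.8, 22.01, 23.8, 20.2, 19.3 and 19.7 CPM, counts scaled to the reads on all genes of a library, in the shLacZ libraries of d0 to d12. The shDIS3L2 libraries held 3.93, 4.44, 7.06, 13.1, 19.6, 18.3 and 14.9 CPM. The libraries labelled shDIS3L2, called so below by their label, held less Dis3l2 than those of shLacZ on d0 to d6, while at d8 (0.971-fold, 95% interval 0.837 to 1.13) and d10 (0.9498-fold, 0.788 to 1.15) a lower level was not detectable. Intervals here are exact (Clopper-Pearson) and cover no error but that of counting, and even this in part, because amplified reads were not collapsed to molecules by identifiers. Libraries held between 7178712 and 39888099 reads on genes. Markers of other cell types moved with the line. From d8 to d12 the summed CPM of 10 mesenchyme markers lay between 1468 and 1941 in shLacZ and between 10020 and 16810 in shDIS3L2, that of 10 visceral endoderm markers between 4084 and 6211 against 1176 and 1906, and that of 12 pluripotency markers between 610.1 and 739 against 187 and 488, with no marker of these 3 lists at 0. In bulk samples, fewer cells of a type and less RNA per cell cannot be told apart, and the part of cell composition in the results below was not tested. The pluripotency genes Pou5f1 and Tdgf1 were at 719 and 304 CPM or more in both d0 libraries, whose label is undifferentiated ESCs. They do not set d0 apart from d2 and d4, where they were at 740 and 408 CPM or more. Mesenchyme markers were low at d0, at 8.67 and 5.14 CPM for the whole list with 2 of the 10 at 0 in each library.

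Lin28a (ENSMUSG00000050966, chr4:134003330-134018841, minus strand) was counted at 71.5, 384, 663, 389.6, 368, 351 and 319.5 CPM in shLacZ from d0 to d12. In shDIS3L2 it stood at 59.45, 358, 679.5, 320.2, 126, 94.5 and 115 CPM. Both lines were low in 2i and highest at d4, and up to d6 the ratio of shDIS3L2 to shLacZ lay between 0.822 at d6 and 1.03 at d4. From d8 on the lines no longer overlapped, since the 3 late libraries labelled shDIS3L2 lay below each shLacZ library but that of d0. The ratio of shDIS3L2 to shLacZ was 0.342 at d8 (95% interval 0.326 to 0.358), 0.269 at d10 (0.254 to 0.285) and 0.361 at d12 (0.338 to 0.386).

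Lin28b (ENSMUSG00000063804, chr10:45376620-45486395, minus strand), the paralog of Lin28a, followed the same course at a lower level, with 5.77, 74.8, 88.9, 58.0, 34.2, 37.4 and 45.4 CPM in shLacZ. In shDIS3L2 it was counted at 3.10, 59.4, 86.4, 56.4, 18.8, 15.7 and 16.8 CPM. The ratio of shDIS3L2 to shLacZ was 0.972 at d4 (0.888 to 1.07) and 0.971 at d6 (0.872 to 1.08), intervals that include 1, and then 0.551 at d8 (0.482 to 0.628), 0.419 at d10 (0.358 to 0.491) and 0.369 at d12 (0.309 to 0.440). In shLacZ, by contrast, its d12 level lay above that of d8. Per kilobase of exon, Lin28a stood between 11.65 and 43.5 times higher than Lin28b in the 14 libraries, with the largest ratios in the 2 libraries of d0.

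Hmga2 (ENSMUSG00000056758, chr10:120361275-120476469, minus strand) encodes a chromatin protein of embryonic cells and is the best known let-7 target. It was counted at 11.1, 8.95, 179, 315, 211.5, 125 and 144 CPM in shLacZ. In shDIS3L2 it stood at 26.9, 6.59, 262, 529, 389, 267 and 241 CPM. Each line was low up to d2 and highest at d6. On 6 of the 7 days Hmga2 was higher in shDIS3L2, by 2.43-fold at d0 (2.16 to 2.75), 1.47-fold at d4 (1.38 to 1.56), 1.68-fold at d6 (1.61 to 1.75), 1.84-fold at d8 (1.77 to 1.92), 2.14-fold at d10 (2.00 to 2.29) and 1.67-fold at d12 (1.57 to 1.79). At d2 it was lower, at 0.737-fold (0.594 to 0.911). From d8 to d12 Hmga2 in shDIS3L2 stood above the shLacZ level and the Lin28 genes below it. All 3 carry let-7 seed matches, and a part of let-7 in these differences was not tested.

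Trim71 (ENSMUSG00000079259, chr9:114507133-114564369, minus strand), which encodes an RNA-binding ubiquitin ligase of the early embryo, was highest near the start. Its levels were 189.9, 202, 168, 146, 128, 133 and 114 CPM in shLacZ. The shDIS3L2 libraries held 214, 168, 172, 159, 70.4, 46.7 and 61.5 CPM. The lines were close up to d6, between 0.833-fold at d2 and 1.13-fold at d0, and the ratio was then 0.549 at d8 (0.513 to 0.588), 0.352 at d10 (0.323 to 0.384) and 0.539 at d12 (0.489 to 0.593). The 3 late shDIS3L2 libraries lay below all the other 11 libraries of both lines. Arid3a (ENSMUSG00000019564, chr10:79927043-79955018, plus strand), a DNA-binding protein of the ARID family, gave no such split. It was counted at 12.0, 8.26, 50.6, 96.8, 75.7, 70.2 and 81.1 CPM in shLacZ. It was counted at 7.86, 5.84, 55.6, 139.8, 109, 58.1 and 58.7 CPM in shDIS3L2, and the ratio passed from 1.44 at d6 (1.34 to 1.56) and at d8 (1.34 to 1.55) to 0.827 at d10 (0.749 to 0.915) and 0.724 at d12 (0.651 to 0.804).

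The 3 Igf2bp genes encode RNA-binding proteins that bind and stabilize mRNAs, and they followed 3 courses. Igf2bp1 (ENSMUSG00000013415, chr11:95957163-96005940, minus strand) was counted at 360.3, 352, 438.5, 340.1, 321, 333 and 324 CPM in shLacZ. In shDIS3L2 it stood at 582.5, 308.5, 416, 356, 256, 208 and 239 CPM, above shLacZ at d0 (1.62-fold, 1.58 to 1.65) and below it at d8 (0.799-fold, 0.769 to 0.8301), d10 (0.626-fold, 0.597 to 0.657) and d12 (0.737-fold, 0.6996 to 0.777). Igf2bp2 (ENSMUSG00000033581, chr16:22059009-22163299, minus strand) was counted at 73.6, 64.2, 118, 236.5, 246, 272 and 261 CPM in shLacZ and was highest late. In shDIS3L2 it stood at 69.7, 62.3, 108, 201, 226, 213 and 209 CPM, with ratios between 0.782 at d10 (0.743 to 0.822) and 0.971 at d2 (0.903 to 1.04). The intervals at d0 and d2 include 1, and at d0 the log2 ratio of Igf2bp2 was -0.08 by library totals, 0.11 under TMM and 0.31 under DESeq2 size factors. Igf2bp3 (ENSMUSG00000029814, chr6:49085223-49214957, minus strand) was counted at 78.3, 93.4, 201, 172, 149, 133 and 134 CPM in shLacZ. In shDIS3L2 it stood at 59.0, 71.6, 204, 214, 169, 119 and 126 CPM, with ratios on both sides of 1, from 0.753 at d0 (0.708 to 0.8004) to 1.248 at d6 (1.18 to 1.32).

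Zcchc11 and Zcchc6 encode the enzymes that tail the let-7 precursor. Zcchc11 (ENSMUSG00000034610, chr4:108459426-108559421, plus strand) was counted at 6.37, 93.8, 109, 139.5, 112, 109.5 and 104 CPM in shLacZ. In shDIS3L2 it stood at 1.32, 79.7, 104, 162, 179, 183 and 159.5 CPM. The d0 libraries were the lowest of each line, with 254 reads in shLacZ and 35 in shDIS3L2, and there shDIS3L2 held 0.208 of the shLacZ level (0.141 to 0.296). From d8 on all 3 shDIS3L2 libraries stood above each shLacZ library, with ratios of 1.603 at d8 (1.52 to 1.70), 1.67 at d10 (1.55 to 1.80) and 1.54 at d12 (1.42 to 1.66). Zcchc6 (ENSMUSG00000035248, chr13:59771879-59823147, minus strand) was counted at 23.3, 57.6, 59.5, 63.4, 77.2, 86.4 and 82.8 CPM in shLacZ. It was counted at 21.6, 50.0, 53.5, 71.5, 79.4, 85.5 and 82.8 CPM in shDIS3L2, and the ratio lay between 0.868 at d2 (0.802 to 0.940) and 1.13 at d6 (1.02 to 1.25), with intervals that include 1 at d0, d4, d8, d10 and d12.

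**Figure D2:**
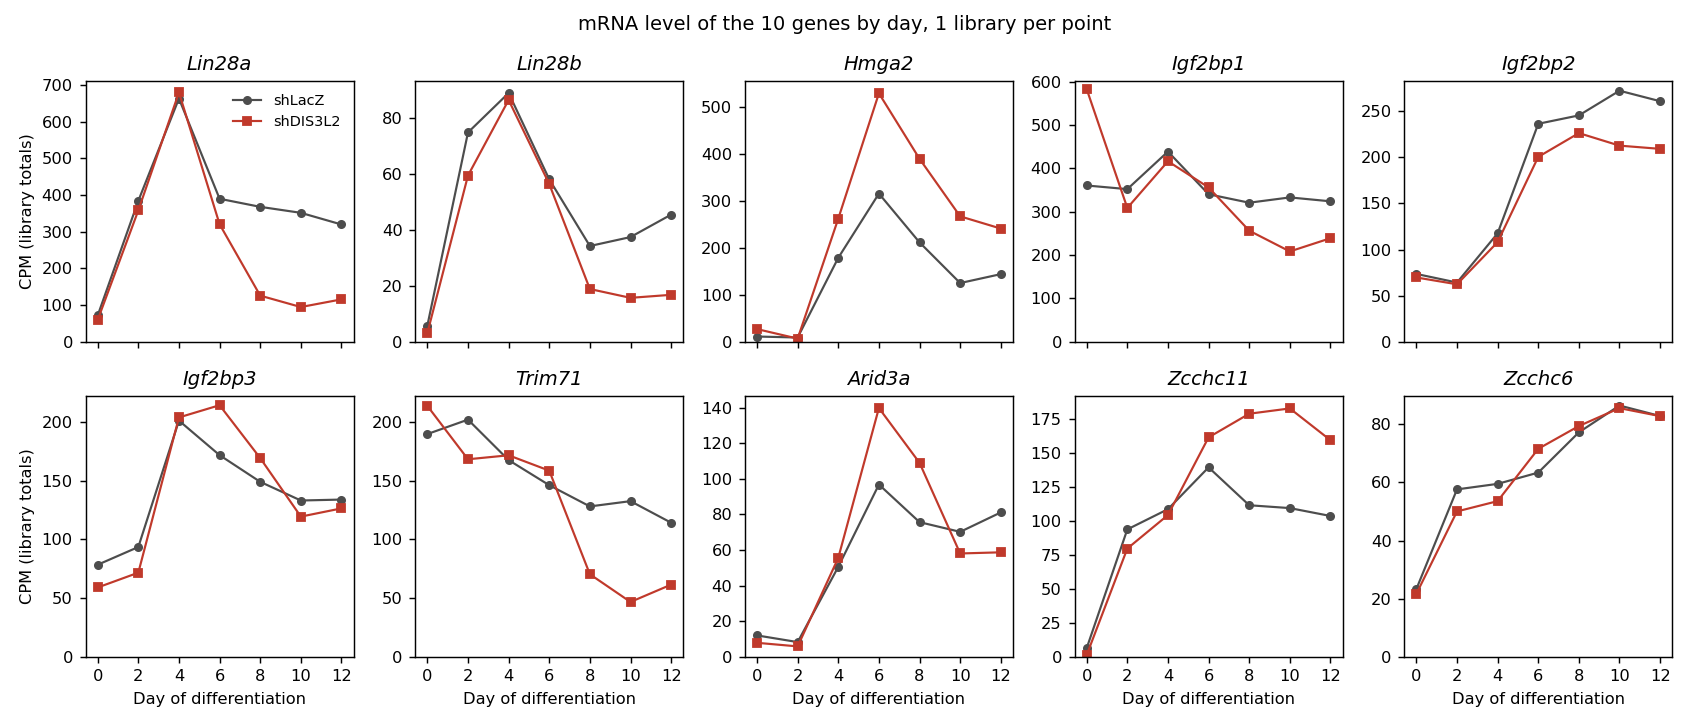
Levels of the 10 genes in CPM (vertical axis, from 0) by day of differentiation (horizontal axis), with 1 library per point, shLacZ in gray circles and shDIS3L2 in red squares. Lin28a, Lin28b and Trim71 separate after d6 with shDIS3L2 lower, Hmga2 and Zcchc11 stand higher in shDIS3L2 from d6 on, and Zcchc6 runs together.

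No day has a replicate, so no p-value can be given for a single day. The 10 genes were counted instead with a 3-fold criterion, applied where either library of the pair reached 1 CPM. At d0, 1 of the 10 genes passed, Zcchc11, lower in shDIS3L2, where 2.84% of 12161 protein-coding genes passed in either direction. At d10, 1 passed, Lin28a, lower in shDIS3L2, where 11.8% passed. None of the 10 passed at d2 (0.243% of all genes), d4 (2.04%), d6 (6.92%), d8 (9.18%) or d12 (9.57%). The counts of the 10 genes are near or below that background on the late days. With TMM scaling Lin28a also passed at d8, and with DESeq2 size factors Hmga2 also passed at d0, higher in shDIS3L2. Scaling moved the d0 values. There the median log2 fold over all genes was -0.32 by library totals, -0.12 under TMM and 0.08 under DESeq2 size factors, and d0 values are read against that shift: Lin28a at d0 was at -0.27 on the log2 scale by library totals and at 0.12 with DESeq2 size factors.

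**Figure D3:**
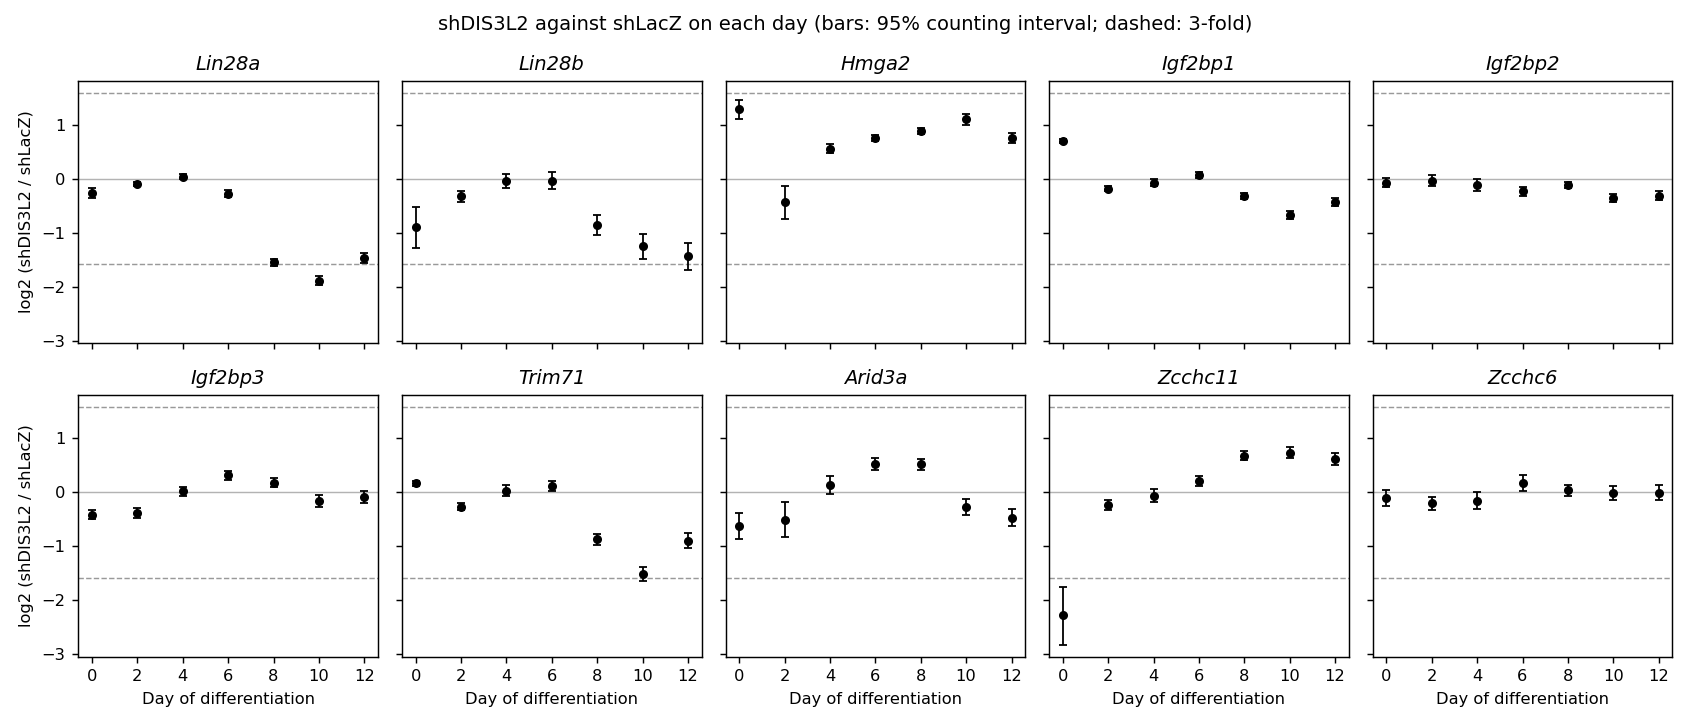
Log2 ratio of shDIS3L2 to shLacZ (vertical axis) for each of the 10 genes by day (horizontal axis), with bars for the 95% counting interval, a gray line at equal levels and dashed lines at 3-fold. Zcchc11 at d0 and Lin28a at d10 lie outside the dashed lines, and the other 68 points lie within them.

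A model was fitted over all genes with edgeR (quasi-likelihood F test), with day as a block. It sets the mean difference between the lines against the variation of that difference from day to day. It takes the days of each line's single culture series in the place of replicates and does not test the lines against other cultures. Over d6 to d12, 7 of the 10 genes differed at an adjusted p under 0.05, as did 38.3% of 17164 genes tested. Lin28a was lower in shDIS3L2 by a log2 difference of -1.31 (SE 0.24, edgeR adjusted p = 0.00642), Lin28b by -0.89 (SE 0.22, edgeR adjusted p = 0.0196) and Trim71 by -0.79 (SE 0.23, edgeR adjusted p = 0.0327). Igf2bp1 (-0.35, SE 0.12) and Igf2bp2 (-0.27, SE 0.07) were lower as well, at edgeR adjusted p of 0.0488 and 0.0201. Hmga2 was higher by 0.86 (SE 0.08, edgeR adjusted p = 0.00077) and Zcchc11 by 0.55 (SE 0.10, edgeR adjusted p = 0.00558). The remaining genes, Igf2bp3 (0.06, SE 0.09), Arid3a (0.08, SE 0.18) and Zcchc6 (0.04, SE 0.07), did not pass. The median log2 difference of the 10 was -0.11, and that of all genes tested 0.02. Lin28a, Hmga2 and Zcchc11 passed whichever of the 4 days was left out, whereas Lin28b, Igf2bp1 and Trim71 passed only without d6, and Igf2bp2 without d6 or d8. Without d8 and d10, the days on which a lower Dis3l2 was not detectable, no gene passed among 15950 tested with edgeR (3149 at an unadjusted p under 0.05). Only 4 libraries then remain for the terms of line and day, which leaves little to measure the spread. A part of Dis3l2 in this loss of calls was not tested. Lin28a stood there at -0.89 (SE 0.32, edgeR adjusted p = 0.258), Hmga2 at 0.73 (SE 0.10, edgeR adjusted p = 0.119) and Zcchc11 at 0.40 (SE 0.14, edgeR adjusted p = 0.247). These are the same directions as with all 4 days.

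Over all 7 days, 1 of the 10 genes passed in edgeR, Hmga2, higher in shDIS3L2 by 0.72 on the log2 scale (SE 0.17, edgeR adjusted p = 0.0433), where 5.72% of 20050 genes passed. Lin28b (-0.68, SE 0.19) and Lin28a (-0.78, SE 0.27) had edgeR adjusted p of 0.0632 and 0.11. The call of Hmga2 was lost when any 1 of d4, d6, d8, d10 or d12 was left out, at adjusted p up to 0.138, and over these leave-outs its difference lay between 0.62 and 0.92. The change of the difference between the lines, from d0 to d4 against d6 to d12, was tested in 1 model. It passed for 1 of the 10 genes, Lin28a, at -1.37 (SE 0.31, edgeR adjusted p = 0.0228), where 10.1% of 20050 genes passed. The call of Lin28a was lost without d0, d2, d4, d8 or d10, at adjusted p up to 0.0808 and values between -1.71 and -1.17. Trim71 (-0.94, SE 0.32) and Zcchc11 (1.02, SE 0.34) had edgeR adjusted p of 0.0829 and 0.0792. For Hmga2 the change was 0.17 (SE 0.33, edgeR adjusted p = 0.784). Among the early days it was higher in shDIS3L2 at d0 and d4 and lower at d2. With 1 day left out, its change ran from -0.20 to 0.68.

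**Figure D4:**
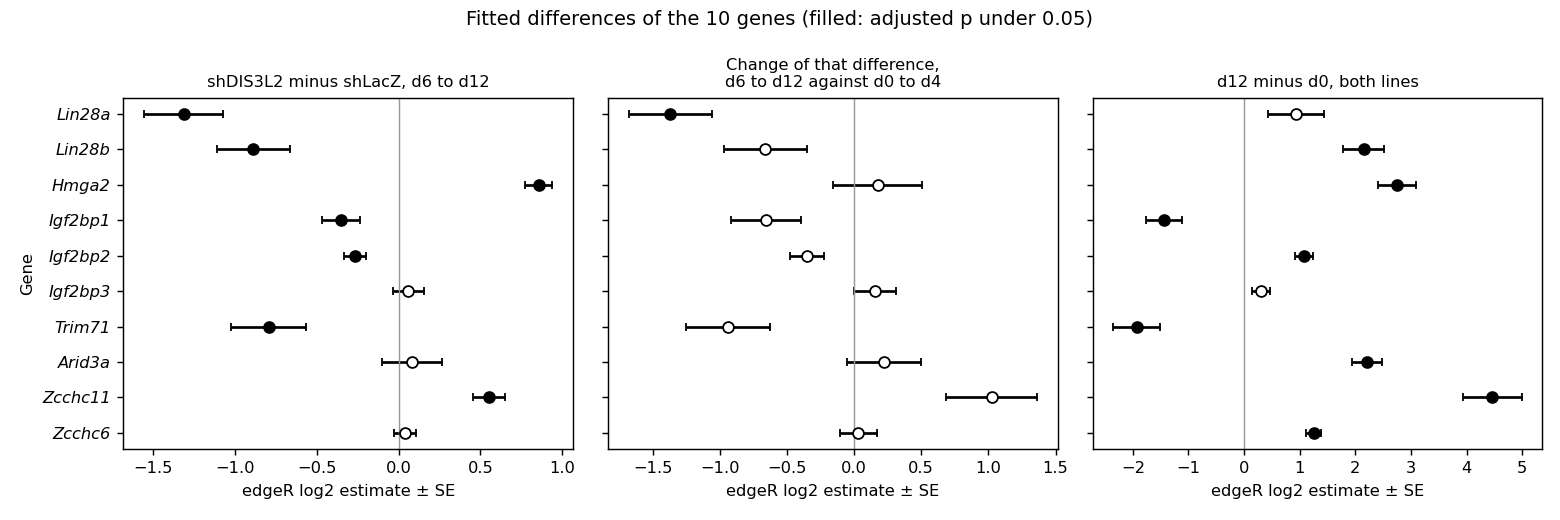
Log2 estimates from edgeR with their standard errors (horizontal axes) for the 10 genes (vertical axis), filled where the adjusted p was under 0.05. The left panel gives shDIS3L2 minus shLacZ over d6 to d12 (7 filled), the middle panel the change of that difference from d0, d2 and d4 (1 filled, Lin28a) and the right panel d12 minus d0 over both lines (8 filled).

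The course from 2i to the last day was compared within each line. From d0 to d12 in shLacZ, Lin28a, Lin28b, Hmga2, Igf2bp2, Arid3a, Zcchc11 and Zcchc6 were at least 3-fold higher, 7 of 10 where 43.8% of 13955 genes passed in either direction. In shDIS3L2 the same genes except Lin28a were at least 3-fold higher and Trim71 was lower, again 7 of 10, where 53.4% passed. The d0 libraries differed in RNA composition from the rest, with TMM factors of 0.711 and 0.623 against 1.02 to 1.15, and from d0 to d12 the log2 fold over all genes had a median of 0.65 in shLacZ and 1.16 in shDIS3L2 by library totals. With TMM scaling those medians were 0.01 and 0.22, and 4 and 5 of the 10 genes passed. Hmga2, Arid3a and Zcchc11 were at least 3-fold higher in both lines under library totals, TMM and DESeq2 size factors alike. Zcchc11 had the largest fold, 16.3 in shLacZ (14.2 to 18.8) and 121 in shDIS3L2 (86.4 to 174) by library totals. In edgeR with TMM over both lines, which there stand in for replicates of a day, 8 of the 10 genes differed between d12 and d0, where 71.2% of 20050 genes did. Zcchc11 (4.46, SE 0.53), Hmga2 (2.75, SE 0.34), Arid3a (2.21, SE 0.28), Lin28b (2.15, SE 0.37), Zcchc6 (1.25, SE 0.14) and Igf2bp2 (1.07, SE 0.16) rose on the log2 scale, with edgeR adjusted p of at most 0.00048. Trim71 (-1.93, SE 0.42) and Igf2bp1 (-1.43, SE 0.32) fell, at edgeR adjusted p of 0.00199 and 0.00249. Lin28a (0.94, SE 0.50) and Igf2bp3 (0.31, SE 0.16) did not pass, although both did with library totals, at 1.58 and 0.93.

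The Lin28 genes and Zcchc11 stood above their d0 level by d2, while Hmga2, Arid3a and Igf2bp2 stood below it at d2 by library totals. By library totals, the d2 level in shLacZ was 5.37 times that of d0 for Lin28a (5.15 to 5.602), 12.97 times for Lin28b (11.3 to 14.9) and 14.7 times for Zcchc11 (12.9 to 16.8), against 0.809 times for Hmga2 (0.688 to 0.9498). In shDIS3L2 the d2 level of Hmga2 was 0.245 times that of d0 (0.203 to 0.294), at least 3-fold lower. From d2 to d12, between libraries whose scaling differed little, Hmga2 was 16.1-fold higher at d12 in shLacZ (14.01 to 18.5) and 36.6-fold in shDIS3L2 (30.9 to 43.6). Over the same interval Lin28a stood at 0.832 of its d2 level in shLacZ (0.799 to 0.866) and at 0.322 in shDIS3L2 (0.303 to 0.342), and Lin28b at 0.607 (0.548 to 0.673) and 0.282 (0.2400 to 0.330). These folds compare single libraries and have no replicate check.

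Per kilobase of exon, the order of the genes within a library changed with time and differed between the lines late. In both d0 libraries Igf2bp1 was first, followed by Trim71 and Lin28a, and from d2 to d6 Lin28a was first in both lines, although at d6 in shDIS3L2 it stood at 80.1 CPM per kilobase beside 78.1 for Hmga2, an order that is not firm. From d8 to d12 Lin28a stayed first in shLacZ, at 80.0 to 92.0 CPM per kilobase, with Igf2bp2 and Igf2bp1 next at 33.1 to 38.2. In shDIS3L2 Hmga2 was first on these days, at 35.6 to 57.5 CPM per kilobase, then came Igf2bp2, at 29.4 to 31.7, and Lin28a, at 23.7 to 31.4. Igf2bp2 and Lin28a stood at 31.7 and 31.4 CPM per kilobase at d8 and at 29.4 and 28.9 at d12, and their order on these days is not firm. The ratio of Hmga2 to Lin28a per kilobase was 0.339, 0.210 and 0.266 at d8, d10 and d12 in shLacZ and 1.83, 1.67 and 1.23 in shDIS3L2. The ratio of Zcchc11 to Zcchc6 per kilobase was 0.175 and 0.0390 in the d0 libraries of shLacZ and shDIS3L2, between 0.801 and 1.41 in the later shLacZ libraries and between 1.02 and 1.44 in the later shDIS3L2 libraries.

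The genes in which let-7 hairpins lie were read from the same libraries. Hosts were found by overlap of the RefSeq hairpins with GENCODE M21 genes on the same strand, a choice made after the data were seen. The counts come from the exons of the host and not from the hairpin, and whether counting used strand is not given in the sources used here. The hairpins searched include that of miR-98 but not those of let-7j and let-7k. Of these 12 let-7 hairpins, 9 hold the letters GGAG, the core of the motif known to be bound by LIN28. The same letters are held by 44.5% of all 1005 mouse hairpins listed. GGAG lies between the arms in 8 of the 11 let-7 hairpins with both arms listed. The hairpins of the 3 hosts that were higher in shDIS3L2 late are shown, with GGAG in capitals. Over d6 to d12, 38.3% of all genes tested differed between the lines. GGAG does not set these hairpins apart, since those of hosts closer between the lines, such as let-7g and let-7f-2, hold it too. In let-7e and let-7c-1, 1 of the 2 marked stretches lies between the arms.
let-7a-2, chr9:41536716-41536811, plus strand, intron of 3110039I08Rik: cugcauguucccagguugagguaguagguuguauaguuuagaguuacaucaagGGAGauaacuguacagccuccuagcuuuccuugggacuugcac
let-7e, chr17:17830352-17830444, plus strand, intron of Spaca6: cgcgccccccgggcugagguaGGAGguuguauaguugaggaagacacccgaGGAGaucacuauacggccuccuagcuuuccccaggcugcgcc
let-7c-1, chr16:77599657-77599750, plus strand, intron of Mir99ahg: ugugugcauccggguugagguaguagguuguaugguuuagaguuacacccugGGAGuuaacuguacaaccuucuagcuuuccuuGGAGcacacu

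3110039I08Rik, a noncoding host, was at 0.0501, 1.63, 0.418, 0.752, 2.90, 7.63 and 7.24 CPM in shLacZ from d0 to d12. In shDIS3L2 it was at 0.0755, 0.327, 0.435, 1.23, 34.4, 121 and 138 CPM. The 3 late shDIS3L2 libraries stood above all the others, at 11.9-fold (8.86 to 16.2), 15.9-fold (12.4 to 20.7) and 19.0-fold (15.0 to 24.4) the shLacZ level of the same day. In edgeR over d6 to d12 the difference was 3.76 (SE 0.34, edgeR adjusted p = 0.000619), and its change from d0 to d4 was 4.91 (SE 0.85, edgeR adjusted p = 0.00965). Spaca6, a protein-coding gene known from sperm, was at 2.68, 14.9, 12.7, 15.9, 22.1, 26.02 and 23.3 CPM in shLacZ. It was at 2.04, 11.8, 14.01, 19.8, 54.6, 78.2 and 65.4 CPM in shDIS3L2, 2.47-fold (2.20 to 2.79), 3.01-fold (2.61 to 3.48) and 2.80-fold (2.42 to 3.27) higher at d8, d10 and d12. Its edgeR difference over d6 to d12 was 1.19 (SE 0.20, edgeR adjusted p = 0.00472) and the change of that difference 1.22 (SE 0.29, edgeR adjusted p = 0.0279). Mir99ahg held at most 2 reads in any shLacZ library, and 16, 40 and 38 reads in shDIS3L2 at d8, d10 and d12, at least 5.22-fold higher at d10 and at least 12.0-fold higher at d12 against a floor of 3 counts in the shLacZ library. The exact 95% intervals of these ratios began at 4.05 and 9.26. Its edgeR adjusted p over d6 to d12 was 0.00864.

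The other measured hosts stood closer between the lines. 6720427I07Rik, whose exons hold the let-7a-1, let-7f-1 and let-7d hairpins, lay between 3.11 and 5.36 CPM in shLacZ and between 3.14 and 8.90 CPM in shDIS3L2, with an edgeR difference of 0.29 over d6 to d12 (SE 0.19, edgeR adjusted p = 0.265). Wdr82, host of let-7g, and Huwe1, host of let-7f-2 and mir-98, differed by 0.17 (SE 0.08, edgeR adjusted p = 0.116) and -0.18 (SE 0.07, edgeR adjusted p = 0.0725). D630033A02Rik, over let-7i, was at or below 1.03 CPM throughout. The host of let-7b and let-7c-2 was not analysed here.

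**Figure D5:**
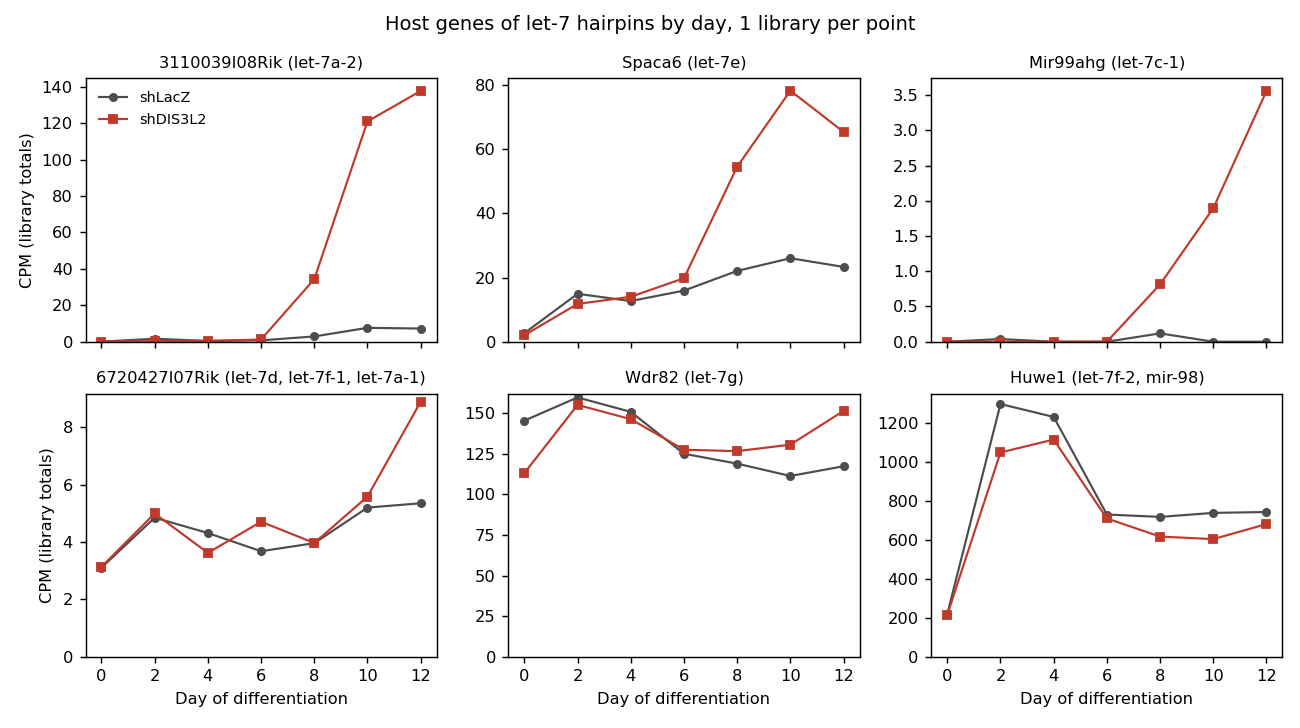
CPM of 6 genes that host let-7 hairpins (vertical axes, from 0) by day (horizontal axis), with 1 library per point, shLacZ in gray circles and shDIS3L2 in red squares. 3110039I08Rik, Spaca6 and Mir99ahg separate from d8 on with shDIS3L2 higher, while 6720427I07Rik, Wdr82 and Huwe1 stay within 1.66-fold between the lines on each day.

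Of 40 other mRNAs listed as let-7 targets, 38 were tested over d6 to d12, and 7 were higher and 7 lower in shDIS3L2 by edgeR, 36.8% where 38.3% of all genes passed. Their median log2 difference was 0.03, against 0.02 for all genes tested. By the 3-fold criterion 2 of them passed on 2 days. Cthrc1, a secreted protein of the matrix, was at 6.51 and 4.00 CPM in shLacZ and at 26.5 and 19.8 CPM in shDIS3L2 at d8 and d10, 4.07-fold (3.31 to 5.05) and 4.97-fold (3.48 to 7.31) higher. Cpa4, a carboxypeptidase, had no read in shLacZ at d10 and d12 and 51 and 28 reads in shDIS3L2, at least 6.65-fold and at least 8.81-fold higher against the same floor, with exact 95% intervals that began at 5.22 and 6.71. Hmga1, the paralog of Hmga2, passed on 1 day, d10, in the opposite direction, with 124 CPM for shLacZ against 37.3 CPM for shDIS3L2, and its edgeR difference over d6 to d12 was -0.97 (SE 0.21, edgeR adjusted p = 0.0116). Hmga1 was singled out after its values were seen.

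Of 20 genes of microRNA processing, 6 were higher and 1 (Ran) lower in shDIS3L2 over d6 to d12, 35.0% of those tested, with a median of 0.09, and none passed the 3-fold criterion on any day. Of 19 genes of terminal nucleotidyltransferases and of the decay of tailed RNA, 18 were tested, and 2 were higher (Fam46a and Xrn1) and 4 lower (Eri1, Lsm1, Papd5 and Parn), 33.3%, with a median of -0.09. Dis3l2 itself stood at -0.35 over these days (SE 0.16, edgeR adjusted p = 0.126). Genes of counts of up to 5 were named after their values were seen. Among marker lists, edgeR over d6 to d12 called 9 of 10 mesenchyme markers and 5 of 6 cardiomyocyte markers higher, 10 of 10 visceral endoderm and 10 of 12 pluripotency markers lower, 3 of 8 blood and 2 of 7 endothelial markers higher, 2 of 7 germ cell markers lower, and 1 of 7 neural markers higher and 2 lower.

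Over all genes, the number of let-7 seed matches in the 3′UTR was set beside the difference between the lines. At d10 the median log2 fold was 0.01 for the 12136 compared genes without a match, 0.00 for the 1299 with 1 match, 0.01 for the 154 with 2 and -0.26 for the 28 with 3 or more. At d12 the medians were 0.05, 0.04, 0.05 and -0.17. For the genes with 3 or more matches the medians of d0 to d8 were -0.27, -0.22, -0.04, 0.07 and -0.13, where all genes with a 3′UTR stood at -0.32, -0.07, -0.01, 0.00 and 0.03, so that their position against all genes went both ways. Of the 28 genes with 3 or more matches, 2 were at least 3-fold higher and 2 at least 3-fold lower in shDIS3L2 at d10. The same counts were found at d12, 7.14% in each direction on both days. Among all genes with a 3′UTR, 8.68% were higher and 3.11% lower at d10, and 8.13% and 1.41% at d12. Their 3′UTRs had a median of 4461 bases, against 1092 for genes without a match, and the 28 include 4 of the 10 genes described here. The part of 3′UTR length in these medians was not tested.

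Among the 10 genes, levels in log2(CPM + 1) over the 14 libraries went together most for Hmga2 and Arid3a (Pearson r = 0.956), Lin28a and Lin28b (r = 0.956) and Zcchc11 and Zcchc6 (r = 0.935), while Hmga2 and Lin28a had r = 0.191 and Hmga2 and Trim71 r = -0.539. The 14 libraries are 2 time courses, so that neighboring points share a line, a culture and a stage, and the values are a description. Among protein-coding genes that reached 5 CPM anywhere, the courses most like that of Lin28a were those of Vrtn, Utp15, Rfwd3, Tex15 and Cnot9 (r between 0.959 and 0.967), and most like that of Lin28b those of Eaf1, Chd1, E2f7, Cnot9 and Atic (0.975 to 0.989). Plekho1, Galnt1, Hmgb3, Nrp2 and Prdm6 were most like Hmga2 (0.965 to 0.979), and Rhebl1, Aurka, Gpatch4, Dnajc2 and Timm8a1 most like Trim71 (0.934 to 0.958).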

How the data were processed

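PolyA RNA of mouse ESCs and EBs was sequenced in 14 libraries, 1 per line and day. Per the labels and the study's methods, the authors aligned reads to GRCm38 with Subread and assigned them to genes with featureCounts, and deposited raw counts per gene. Whether counting used strand is not given in the sources used here. The authors also deposited CPM values made with edgeR for 16181 genes. These equalled the count plus 0.25 over the reads of the library on these 16181 genes to within 0.064%. The CPM given here are instead scaled to the reads on all genes. The deposited values served to find the genes by name.

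From the counts, CPM, ratios with exact 95% intervals and the 3-fold criterion (at least 1 CPM in 1 library, prior count of 0.25) were computed for protein-coding genes with Python 3.11.15 (SciPy 1.17.1). Libraries held 7178712 to 39888099 reads on genes, and 3 counts were taken as the floor. Models were fitted over all genes with edgeR 4.0.16 in R 4.3.3 (filterByExpr, TMM, quasi-likelihood F test, Benjamini-Hochberg adjustment, 0.05) after the scripts were tested on simulated data. The between-line models had day as a block, and the d12 against d0 model had line and day as terms. Alternatives were library totals, DESeq2 1.42.0, no filter on low counts, no day block, a fold of 2, other CPM minimums, the deposited CPM values, each day left out and, added after the data were seen, d8 and d10 left out together. Their effect is given in the closing section. The p-values measure only the spread between these libraries that the terms of each model leave over.

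The 10 genes and all gene lists (other let-7 targets, let-7 primary transcripts, microRNA processing, terminal nucleotidyltransferases and tailed RNA decay, and 8 marker lists) were chosen with earlier results of these data known. Outside the 10, genes were to be named where they passed the 3-fold criterion on at least 2 days, with the 5 most correlated genes of Lin28a, Lin28b, Hmga2 and Trim71 and the top markers. Other names were chosen after their values were seen, as were the hosts of let-7 hairpins and the search of 3′UTRs. Of 15 let-7 primary transcripts listed, 13 were found among the counted genes, and 1 of these (Mir99ahg) had enough reads to be tested over d6 to d12. Names and 3′UTRs came from GENCODE M21 and microRNAs from RefSeq (GRCm38.p6).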

Additional observations from a re-analysis of the deposited data

Results flagged for a closer look

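Among the 10 genes, the let-7 hosts and the listed genes past the 3-fold criterion on any day, the difference between the lines changed from d0 to d4 against d6 to d12 for 5, by a test of that change in edgeR over 20050 genes. Lin28a changed by -1.37 (log2, SE 0.31, edgeR adjusted p = 0.0228) and Dis3l2, the knockdown target, by 1.61 (SE 0.29, edgeR adjusted p = 0.0112), as its level in the libraries labelled shDIS3L2 came near that of shLacZ. The let-7a-2 host 3110039I08Rik changed by 4.91 (SE 0.85, edgeR adjusted p = 0.00965), and the let-7e host Spaca6 by 1.22 (SE 0.29, edgeR adjusted p = 0.0279). Hmga1, a listed let-7 target, changed by -1.21 (SE 0.27, edgeR adjusted p = 0.0217). In the same model 10.1% of all genes passed. The listed genes had entered through their difference between the lines, and the hosts were chosen after the data were seen. The 5 calls are therefore not to be set against that share. With 1 library per line and day, no group was large enough to look for single samples that stand apart.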

How the results depend on the processing

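No paired analysis by replicate number was possible because each line has 1 library per day, all numbered 1. The lines were paired by day, which is the block of the between-line models. Of 636 values recomputed under alternatives, 476 were taken as the same. Tested genes had to keep direction and side of the threshold, folds to stay in their counting interval, and counts of calls to stay within a set factor. The 4 comparisons of most correlated genes were taken as the same without a criterion. Of the rest, 87 moved, 38 lost a call, 16 gained a call and 19 turned direction. The recomputed folds of the 10 genes from d0 to d12 all moved, 20 in each line.

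Counted once per gene and day, calls of the 10 genes between the lines were 2 at 3-fold and 9 at 2-fold. Counted once per gene and line, calls from d0 to d12 were 14, and 9 with TMM scaling. Over 7 days, 1147 genes passed in edgeR, against 2511 with DESeq2, 2093 with no filter, 0 without the day block (627 at an unadjusted p under 0.05) and 0 without d8 and d10 (1971 unadjusted). With 1 day left out, the count ran from 8 to 2189 (2189 without d0, 102 without d6, 13 without d8, 8 without d10, 12 without d12). Over d6 to d12, 6574 passed, against 3334 without the day block, where Zcchc11 was the 1 gene of the 10 to pass, 0 without d8 and d10, and 3336 to 6677 with 1 day left out (3449 without d8, 3336 without d10). For the change of the difference, 2023 passed, against 3279 with no filter, 24 without d8 and d10, and 524 to 2151 with 1 day left out (1209 without d0, 524 without d2, 727 without d8, 626 without d10). With library totals in place of TMM, higher and lower calls went from 972 and 1051 to 1139 and 415 for the change, from 8019 and 6263 to 10183 and 4360 for d12 against d0, and from 382 and 765 to 330 and 962 over 7 days. Fewer days leave fewer libraries in the fit, and the causes were not tested otherwise.

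Values that turned direction belonged to genes that did not pass the test. Over 7 days, Igf2bp1 (-0.13) was 0.065 without the day block and 0.055 without d8 and d10, Arid3a (-0.08) was 0.10 without the block, Zcchc11 (0.06) was -0.18 without d8 and d10, and Zcchc6 (-0.03) was 0.0047 with DESeq2. With 1 day left out, the 7-day differences ran from -0.13 to 0.021 for Igf2bp3, from -0.18 to 0.021 for Arid3a, from -0.052 to 0.32 for Zcchc11 and from -0.060 to 0.032 for Zcchc6. Over d6 to d12 they ran from -0.032 to 0.13 for Igf2bp3, from -0.074 to 0.27 for Arid3a and from -0.0070 to 0.066 for Zcchc6. The change of the difference ran from -0.20 to 0.68 for Hmga2 and from -0.019 to 0.19 for Zcchc6. At the depth of these libraries, counting error was small for the 10 genes, with the widest interval at Zcchc11 at d0.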
